A study of Rattus norvegicus with 6 samples.

Results

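The genes described here encode proteoglycan core proteins and the enzymes that start, lengthen, sulfate and trim their heparan sulfate and chondroitin sulfate chains. They also encode synthases and hydrolases of hyaluronan, and Chst sulfotransferases of other chains, such as Chst1 of keratan sulfate. They were taken by symbol from the table of normalized counts, as the families Chst, Hs2st, Hs3st, Hs6st, Ndst, Ext, Extl, Xylt, Has, Hyal, Sulf, Chsy, Chpf, Sdc and Gpc, with Dcn, Bgn, Lum, Fmod, Vcan, Agrn, Srgn and Glce. The rule reads names alone and found 64 of the 27321 features. Of these, 60 were single genes, 1 was Ndst2 merged with an overlapping gene, RGD1309414, and 3 carried a pair of names (Hyal1 with Hyal3, Sdc2 with Pgcp and Sdc4 with F1LW47_RAT) with at most 2 reads in any library. Hspg2, Gpc1, Gpc5, Gpc6, Sdc3, Chst14, Chpf2, Hs6st3 and Hs3st4 were not analysed here.

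A proteoglycan is a core protein that carries long, sulfated sugar chains, which bind water, growth factors and collagen. Heparan sulfate and chondroitin sulfate are built on a core protein in the Golgi, whereas hyaluronan is an unsulfated chain that is extruded at the plasma membrane without a core. The interstitium of the renal inner medulla is known for a matrix rich in hyaluronan.

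The libraries came from the inner medulla (IM) tip, the terminal part of the kidney inner medulla, of male Sprague-Dawley rats aged 3 months. In the STZ group, 3 rats received streptozotocin, which destroys the insulin-producing beta cells, through the tail vein at 62.5 mg/kg, and in the control group 3 rats received the vehicle. Tissue was taken 15 days later from both groups. Each library is whole tissue of that region, so every value is a mixture of tubule, vessel and interstitial cells, and the labels give no pooling of animals.

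The libraries held between 3412311 and 5575171 reads on genes, and the 64 features took between 0.319% and 0.480% of them in each library. The highest share was in STZ replicate 1 and the lowest in STZ replicate 3. The 95th percentile of 835 olfactory receptor genes, taken as a background level, lay between 1.86 and 10.02 normalized counts and was highest in replicate 3 of both groups. The column names of the deposited table place all control libraries on lane 3 and STZ replicates 1, 2 and 3 on lanes 7, 6 and 8, so lane and group cannot be told apart.

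Of the 64 features, 35 had a mean of at least 5 normalized counts over the 6 libraries and were tested, and 29 were not. The highest mean among those left out was 4.90 and the lowest among those tested was 5.99. The count of a gene also scales with the length of its transcript, which was not used here, so the order of the genes along the axis of the plot of all members is an order of counts and not of molecules. Of the 35 features tested, 30 lay above the olfactory receptor background in all 6 libraries, and of the 29 others 0 did. Among those not tested, 12 genes were at or under 3 reads in every library, including the xylosyltransferase gene Xylt1, the hyaluronan synthase gene Has3 and the chondroitin 4-O-sulfotransferase gene Chst11. Chst3, which encodes a chondroitin 6-O-sulfotransferase, had 0 reads in all 6 libraries, where up to 3 reads per library would be compatible with a count of 0.

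**Figure D1:**
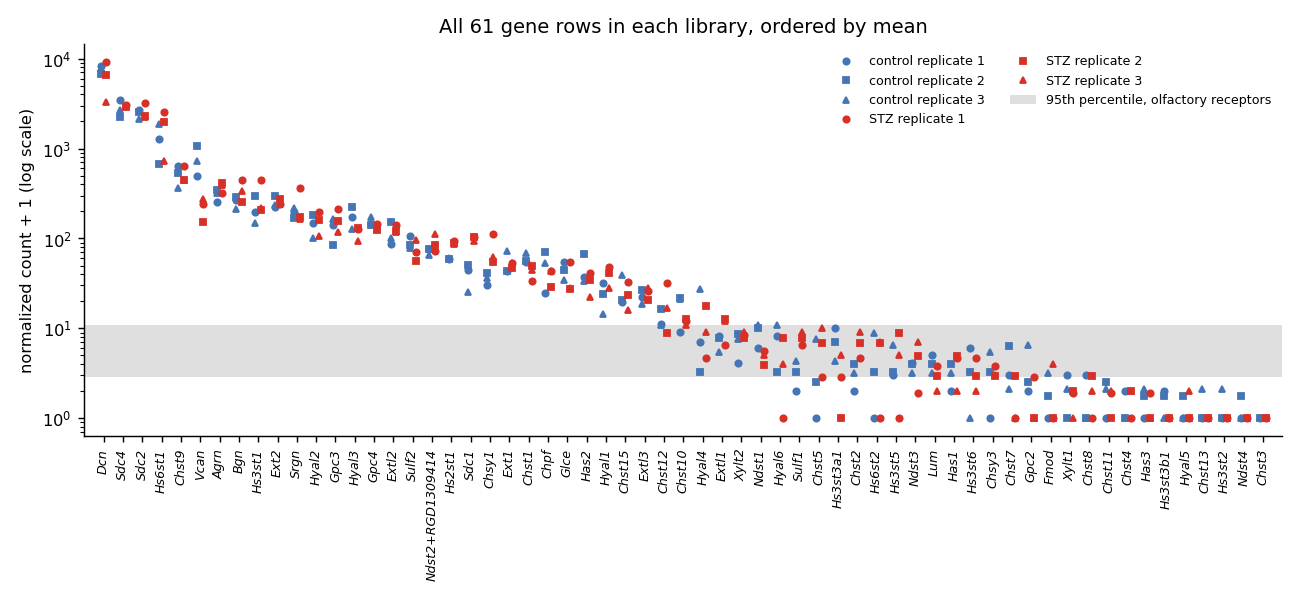
Normalized count plus 1 of the 60 single genes and of Ndst2 with RGD1309414 (log axis) in each of the 3 control (blue) and 3 STZ (red) libraries, ordered by mean count, with the range of the olfactory receptor background in grey. Dcn has the highest counts, between 3307 and 9202, and the genes on the right lie within or under the grey band.

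Between STZ and control, 2 of the 35 members passed the test: the matrix proteoglycan Vcan fell and the syndecan Sdc1 rose. That is 5.71% of the members tested, beside 2.1% of the 13486 features tested (283 features, limma on log2(normalized count + 1), adjusted p under 0.05). Among all features tested, 1.17% were called higher in STZ and 0.927% lower. The heparan sulfate polymerases, the heparan sulfate modifying enzymes, the chondroitin polymerases, the carbohydrate sulfotransferases, the hyaluronan synthases and the hyaluronidases had 0 members called. At an unadjusted p under 0.05, 6 members (17.1%) were counted, beside 14.7% of all features. edgeR and DESeq2 each called 2 members, beside 2.13% and 6.63% of the features for which they gave an adjusted p. DESeq2 gave no adjusted p for 6 of the 35 members, so its share is taken over fewer members.

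By sign alone, 23 of the 35 members were higher in STZ and 12 were lower. The median log2 fold change of the members was 0.10, beside 0.0056 over all features tested, and their median absolute log2 fold change was 0.32, beside 0.29. In 26 members the absolute log2 fold change was under 0.5, and in 16 the 95% interval lay between -1 and 1. The intervals of the others reached past -1 or 1. The median SD within groups on the log2 scale was 0.41 for the members, beside 0.35 for all features tested, and the median moderated standard error from limma was 0.29 for both.

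**Figure D2:**
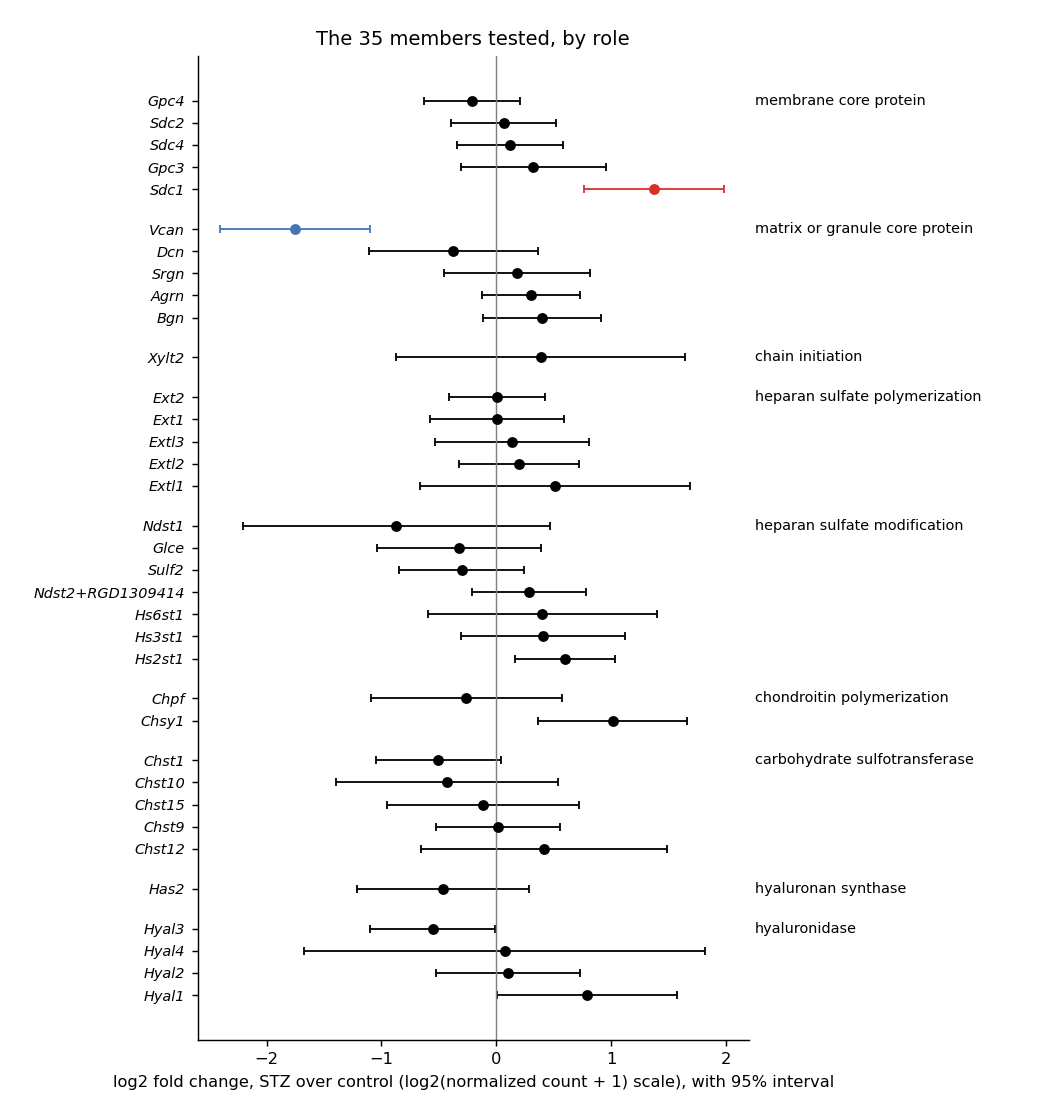
Difference, STZ minus control, of log2(normalized count + 1) for the 35 members tested, grouped by role, with 95% intervals from limma. Vcan (blue, -1.75) and Sdc1 (red, 1.38) are the members with an adjusted p under 0.05, and most other intervals include 0.

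Vcan encodes versican, a large chondroitin sulfate proteoglycan that binds hyaluronan in the extracellular matrix. The gene lies at chr2:19714327-19812379 (rn4). Control replicates 1, 2 and 3 held 495, 1060.2 and 719 normalized counts and STZ replicates 1, 2 and 3 held 238, 150.3 and 274, and values are given in this order below. Every STZ library was below every control library, and control replicate 2 was the highest. The mean fell from 758 ± 285 in control to 221 ± 63.6 in STZ (SD, n = 3 each), 3.44-fold lower by the ratio of means. The log2 fold change was -1.75 with a standard error of 0.30 and a 95% interval from -2.40 to -1.10 (limma, adjusted p = 0.0150). edgeR gave an adjusted p of 0.0181. In bulk tissue, fewer cells that express a gene and less RNA per cell cannot be told apart, here and in every result below. Leaving out control replicate 2 or STZ replicate 2 took the adjusted p of Vcan past the threshold, to 0.0645 and 0.0574 in limma, with log2 fold changes of -1.48 and -1.50, and with each of the other 4 libraries left out it stayed under 0.05.

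Sdc1 encodes syndecan-1, a transmembrane heparan sulfate proteoglycan that is characteristic of epithelia and plasma cells. The gene lies at chr6:32253351-32275809 (rn4). It was at 44.1, 49.6 and 24.5 normalized counts in the control libraries and at 103, 104 and 92.4 in the STZ libraries. The STZ libraries lay close together and above all control libraries, and control replicate 3 was the lowest. The means were 39.4 ± 13.2 and 99.8 ± 6.42 (SD, n = 3 each), 2.53-fold higher in STZ by the ratio of means. The log2 fold change was 1.38 with a standard error of 0.28 and a 95% interval from 0.77 to 1.99 (limma, adjusted p = 0.0328). edgeR gave an adjusted p of 0.0311. The call of Sdc1 was lost with any library left out except control replicate 3. The adjusted p in limma was then 0.0574, 0.0533, 0.0848, 0.118 and 0.0759 without control replicates 1 and 2 and STZ replicates 1, 2 and 3, with log2 fold changes between 1.35 and 1.57. Without control replicate 3 the log2 fold change was 1.08, with an adjusted p of 0.0339. For both genes the two-sided exact permutation test of 3 against 3 libraries gave p = 0.1, the smallest it can give.

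The sequences upstream of Vcan and Sdc1 are shown because these are the members that passed the test. They are the 250 bases before the annotated start in RefSeq on GRCr8, a later assembly than that of the counts, at chr2:22595956-22596205 on the minus strand for Vcan, where the outermost of 2 RefSeq starts was taken, and at chr6:37281791-37282040 on the plus strand for Sdc1. Both read 5′ to 3′ towards the gene, and capitals mark the GC box (GGGCGG or its reverse complement CCGCCC) and the CCAAT box (CCAAT or its reverse complement ATTGG).
Vcan: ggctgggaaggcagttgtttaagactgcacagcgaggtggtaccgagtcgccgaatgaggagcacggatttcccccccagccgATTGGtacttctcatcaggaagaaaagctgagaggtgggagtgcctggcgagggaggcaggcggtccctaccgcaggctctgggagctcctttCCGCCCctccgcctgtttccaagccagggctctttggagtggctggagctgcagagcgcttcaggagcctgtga
Sdc1: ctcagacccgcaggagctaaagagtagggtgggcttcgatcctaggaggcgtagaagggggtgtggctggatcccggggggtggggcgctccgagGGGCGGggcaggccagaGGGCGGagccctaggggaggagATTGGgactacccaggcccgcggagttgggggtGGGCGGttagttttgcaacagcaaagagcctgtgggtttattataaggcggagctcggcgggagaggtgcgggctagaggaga

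The Vcan stretch held 1 GC box and 1 CCAAT box, and the Sdc1 stretch held 3 GC boxes and 1 CCAAT box. Both strands were searched, and the matches shown do not overlap. Neither stretch held TATAAA or the E-box CACGTG. Among 33469 rat promoters of the same length, 30.5% held GGGCGG, 34.0% CCAAT, 12.9% TATAAA and 5.59% CACGTG on either strand. Bases G and C made up 61.6% of the Vcan stretch and 65.2% of the Sdc1 stretch, beside a median of 51.2% over all promoters. These are matches of letters and were not tested for binding or use.

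Markers of several cell types moved with the groups in which Vcan and Sdc1 differ. The counts of called markers in limma stand beside 2.1% of all features tested, 1.17% higher and 0.927% lower. Of the endothelial markers, 2 of 5 tested were lower (Plvap and Emcn), and their summed normalized counts were between 6987 and 9081 in control and between 3600 and 3990 in STZ. Of the intercalated cell markers, 3 of 4 were lower (Atp6v1b1, Atp6v0d2 and Slc4a1), with sums of 475 to 775 in control and 176 to 241 in STZ. Of the thick ascending limb markers, 2 of 3 were lower (Umod and Egf), with sums of 1099 to 1886 and 209.8 to 597. The sums of these 3 lists were below control in every STZ library, as was Vcan. Most of the endothelial sum was Emcn, with a mean of 5510 in control and 2095 in STZ. Cdh5, Plvap and Tek were also below control in every STZ library, as were 10.3% of all features. Cdh5 and Tek did not pass the test (limma, adjusted p = 0.163 and 0.156). The endothelial marker Pecam1 overlapped, with a log2 fold change of 0.04.

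Of the urothelial markers, 2 of 4 tested were higher (Upk1b and Upk3a), with sums of 79.3 to 124 in control and 419.7 to 501 in STZ. The pericyte and smooth muscle list had 1 of 2 higher (Tagln), with sums of 317 to 364 and 691 to 726, and the interstitial cell and fibroblast list had 1 of 6 higher (Pdgfra), with sums of 947 to 1292 and 1567 to 1825. The sums of these 3 lists lay above control in every STZ library, as did Sdc1. Of the 5 genes in the pericyte and smooth muscle list, only Tagln and Rgs5 were analysed. Rgs5 overlapped between the groups, with a log2 fold change of 0.48 (limma, adjusted p = 0.479). The interstitial sum followed Pdgfra, whose mean was 535 in control and 1073 in STZ, while the median log2 fold change of that list was 0.02 and those of Pdgfrb and Thy1 were -0.16 and -0.28. The principal cell, thin limb, proximal tubule, leukocyte and mast cell lists had 0 of 6, 3, 3, 6 and 2 genes called, and the mast cell genes Cpa3 and Fcer1a were close to 0. The principal cell markers that define the collecting duct of the IM tip were present in every library, with overlapping sums of 11192 to 19424 in control and 18807 to 36188 in STZ and a median log2 fold change of 0.81. Aqp2, Scnn1b and Scnn1g were above control in every STZ library, beside 10.1% of all features, with adjusted p of 0.180, 0.235 and 0.120 in limma. DESeq2 called Aqp2 (adjusted p = 0.0281) and Scnn1g (adjusted p = 0.0391), beside 6.63% of the features for which it gave an adjusted p. Aqp3, Aqp4 and Avpr2 of the same list overlapped between the groups, with log2 fold changes of 0.91, 0.12 and 0.04. The part of these cell types in the results for the members was not tested.

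**Figure D3:**
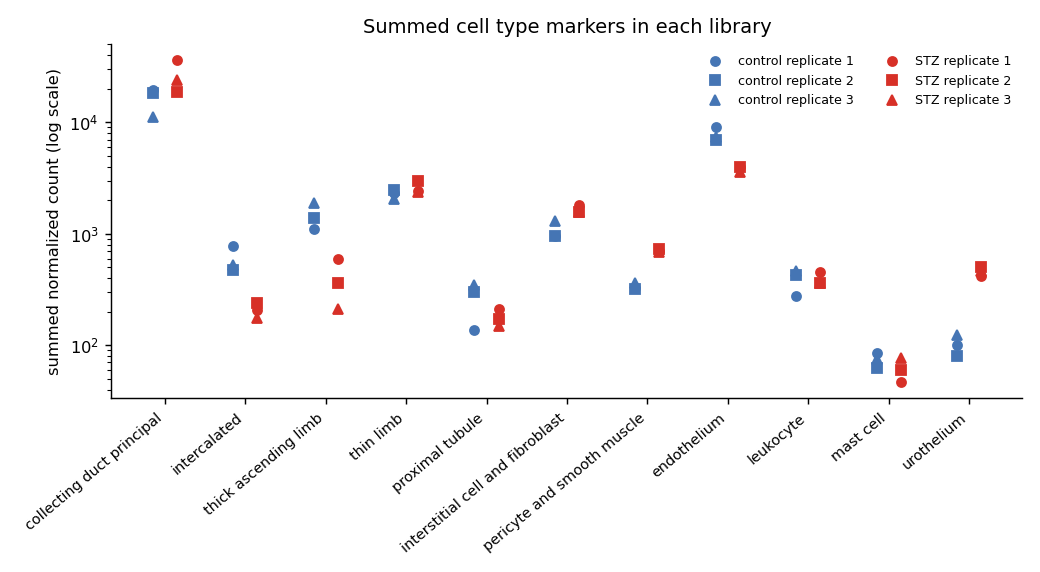
Summed normalized counts of 11 cell type marker lists in each library (log axis), with control in blue, STZ in red and the replicate given by the symbol. The endothelial, intercalated cell and thick ascending limb sums are lower in all 3 STZ libraries, and the urothelial, pericyte and interstitial sums are higher.

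Counting Vcan and Sdc1, 6 of the 35 members had groups that did not overlap, beside 20.3% of all features. The 3 STZ values lay above the 3 control values in Sdc1, Hs2st1 and Chsy1, beside 10.1% of all features, and below them in Vcan, Chst1 and Ndst1, beside 10.3%. Besides Vcan and Sdc1, these genes did not pass the test across all features, and their values are given by role below.

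**Figure D4:**
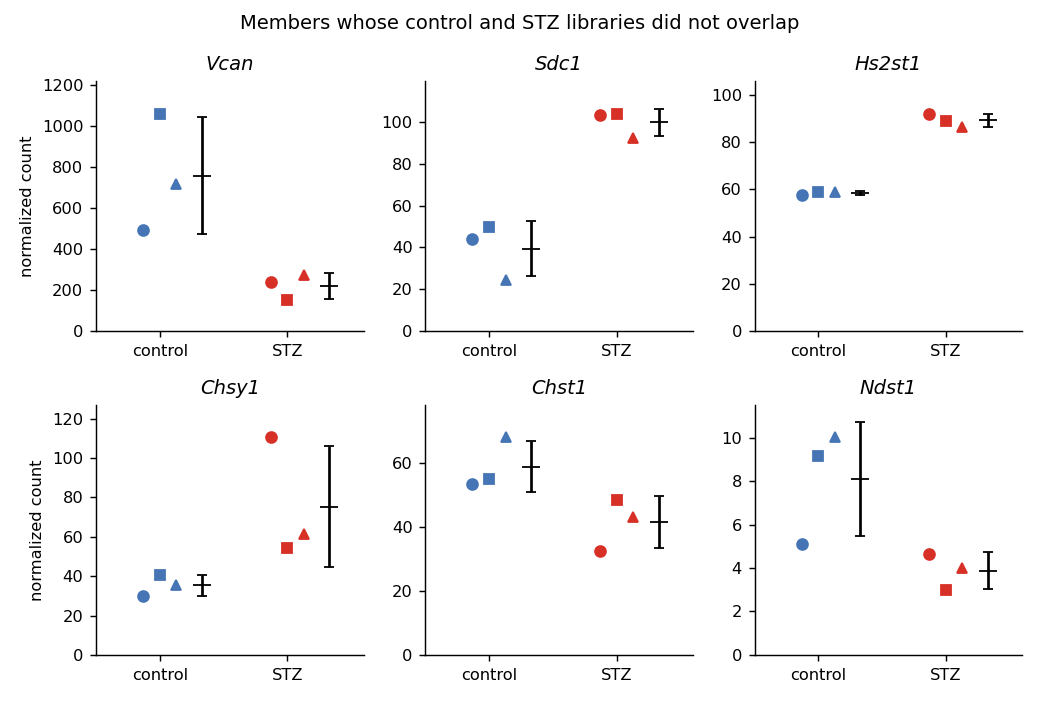
Normalized counts of the 6 tested members whose 3 control and 3 STZ libraries did not overlap, as points per library (circle, square and triangle for replicates 1, 2 and 3) with the mean and SD of each group. Vcan, Chst1 and Ndst1 are lower in every STZ library, and Sdc1, Hs2st1 and Chsy1 are higher.

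Among the membrane core proteins, Sdc1 was the member called of 5 tested. Sdc4, a syndecan of focal adhesions, was at 3478, 2255 and 2662 normalized counts in the control libraries and at 3082, 2918 and 2977 in the STZ libraries. Sdc2, a syndecan best known from mesenchymal cells, was at 2682, 2529 and 2129 in control and at 3174, 2309 and 2254 in STZ. In both genes the groups overlapped, with log2 fold changes of 0.12 (95% interval -0.34 to 0.58) and 0.06 (-0.39 to 0.52). Neither interval reached 0.77, the lower end of that of Sdc1, and the difference between the syndecan genes was not tested. The glypicans Gpc3 and Gpc4, which a lipid anchor holds to the membrane and which are neighbours on chromosome X, had log2 fold changes of 0.32 (limma, adjusted p = 0.702) and -0.21 (adjusted p = 0.710). Gpc2 had at most 5.57 normalized counts and was not tested.

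Among the core proteins of matrix and granules, Vcan was the member called of 5 tested. Dcn encodes decorin, a small leucine-rich proteoglycan that binds collagen fibrils, and was at 8304, 6728 and 7824 normalized counts in control and at 9202, 6629 and 3307 in STZ. STZ replicates 1 and 3 held the highest and the lowest value of all 6 libraries, and the log2 fold change was -0.37 with a standard error of 0.33 (limma, adjusted p = 0.705). Without STZ replicate 3 it was 0.04. Lum, the gene of the related lumican next to Dcn on chromosome 7, was between 1.004 and 4.10 normalized counts and was not tested.

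Bgn, which encodes biglycan, the closest relative of decorin, was at 267, 285 and 214 normalized counts in control and at 442, 250.2 and 338 in STZ. Agrn, the gene of the basement membrane heparan sulfate proteoglycan agrin, was at 252, 341 and 323 in control and at 321, 415 and 392 in STZ. Both groups overlapped in each gene, with log2 fold changes of 0.40 (limma, adjusted p = 0.479) and 0.30 (adjusted p = 0.547). Srgn, which encodes serglycin, the proteoglycan of secretory granules in blood cells, was at 194, 167 and 217 in control and at 362, 173 and 163 in STZ. STZ replicate 1 stood above the other 5 libraries, and STZ replicate 3 was the lowest. Fmod, the gene of fibromodulin, had at most 3.01 normalized counts.

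The chains begin with a xylose that is added to the core protein. Of the xylosyltransferase genes that do this, Xylt2 was between 3.08 and 8.03 normalized counts, with a log2 fold change of 0.39 (limma, adjusted p = 0.861), and Xylt1 was at or under 3 reads.

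All 5 genes of heparan sulfate polymerization were tested and 0 passed, with log2 fold changes between 0.01 and 0.51. Ext1 and Ext2 encode the subunits of the copolymerase. Ext2 was at 221, 299 and 234 normalized counts in control and at 239.6, 274 and 239.9 in STZ, the narrowest range of the 35 members, with a 1.35-fold distance between its highest and lowest library. Its 95% interval ran from -0.41 to 0.43 on the log2 scale. Ext1 was between 42.0 and 71.2, with an interval from -0.57 to 0.59. The signs of both log2 fold changes, 0.01 each, turned negative under other scalings, to -0.02 with equal library totals. Extl1 was the lowest of the 5 by count, between 4.45 and 11.9, with an interval from -0.66 to 1.69.

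Of 16 genes that modify heparan sulfate, 7 were tested and 0 passed, and Hs2st1 had the lowest adjusted p. It encodes the 2-O-sulfotransferase of uronic acid and lies at chr2:242622270-242760095 (rn4). Hs2st1 was at 57.4, 58.7 and 59.0 normalized counts in control and at 91.9, 89.0 and 86.3 in STZ. The libraries of each group lay within 3 normalized counts of their group mean, and the groups were far apart relative to that spread. The means were 58.4 ± 0.849 and 89.1 ± 2.80 (SD, n = 3 each), and the log2 fold change was 0.60 with a 95% interval from 0.16 to 1.04 (limma, adjusted p = 0.165). Counting error alone was wider than the spread between the libraries: control replicate 1 rested on 56 reads, with an exact Poisson 95% interval of 43.4 to 74.6 normalized counts, and STZ replicate 1 on 99 reads, with an interval of 74.7 to 112. Over the 20 alternative settings the adjusted p of Hs2st1 was between 0.0534 and 0.402.

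Ndst1, the N-deacetylase and N-sulfotransferase that makes the first modification, was at 5.13, 9.15 and 10.02 normalized counts in control and at 4.64, 2.97 and 4.02 in STZ. The groups did not overlap, but the gene rested on 3 to 12 reads per library, and control replicate 1 and STZ replicate 1 held 5 reads each. Its log2 fold change was -0.87 with a standard error of 0.61 (limma, adjusted p = 0.584). Hs6st1, a 6-O-sulfotransferase, was at 1259.9, 664 and 1851 normalized counts in control and at 2519, 1972 and 719.8 in STZ. The gene varied 3.80-fold across the libraries without following the groups, with its lowest values in control replicate 2 and STZ replicate 3. Its 95% interval ran from -0.60 to 1.40 on the log2 scale. Hs3st1, a 3-O-sulfotransferase, was at 197, 296 and 149 in control and at 451, 209 and 216 in STZ, where STZ replicate 1 was the highest.

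The C5-epimerase gene Glce and the sulfatase gene Sulf2, whose product removes 6-O-sulfate outside the cell, had log2 fold changes of -0.32 and -0.30 (limma, adjusted p = 0.755 and 0.666). Sulf1, the other sulfatase, was at 1.03, 2.29 and 3.34 normalized counts in control and at 5.57, 6.92 and 8.03 in STZ. Its groups did not overlap, but all 6 values are low, and its mean was under the minimum for the test. It is named after its values were seen.

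Of the 3 chondroitin polymerization genes, 2 were tested and 0 passed. Chsy1, a chondroitin synthase, lies at chr1:120538994-120600102 (rn4) and was at 29.7, 40.4 and 35.6 normalized counts in control and at 110.5, 54.4 and 61.2 in STZ. All STZ libraries were above all control libraries, and STZ replicate 1 was well above the other 5. The means were 35.3 ± 5.36 and 75.4 ± 30.6 (SD, n = 3 each), with a log2 fold change of 1.01, a 95% interval from 0.36 to 1.66 and an adjusted p of 0.119 in limma. The third lowest adjusted p of the members was that of Chsy1, and over the 20 alternative settings it was between 0.0612 and 0.398. Chpf, the chondroitin polymerizing factor, was between 23.6 and 70.2 normalized counts, with its lowest and highest values in control libraries.

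Of 13 carbohydrate sulfotransferase genes of the Chst family, 5 were tested, 0 passed and 5 were at or under 3 reads in all libraries. Chst9, which adds 4-O-sulfate to N-acetylgalactosamine, was at 642, 532 and 358 normalized counts in control and at 639, 445 and 442 in STZ. The control mean was 511 ± 143 and the STZ mean 509 ± 113 (SD, n = 3 each), closer than the spread within either group, and the 95% interval of the log2 fold change was -0.53 to 0.55. Chst1, a galactose 6-O-sulfotransferase of keratan sulfate, lies at chr3:76994088-77008874 (rn4) and was at 53.3, 54.9 and 67.9 in control and at 32.5, 48.5 and 43.2 in STZ. Every STZ value was below every control value, with a log2 fold change of -0.51 and a 95% interval from -1.05 to 0.04 (limma, adjusted p = 0.383). Chst2, an N-acetylglucosamine 6-O-sulfotransferase, was between 1.03 and 3.05 normalized counts in control and between 3.71 and 8.03 in STZ. Its groups did not overlap, but its mean over the 6 libraries was under the minimum for the test, and it is named after its values were seen.

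Hyaluronan is made by 3 synthase genes. Has2 was tested, at 35.9, 65.6 and 32.3 normalized counts in control and at 39.9, 33.6 and 21.1 in STZ. The values of the groups overlapped, with a log2 fold change of -0.46 and a 95% interval from -1.21 to 0.29 (limma, adjusted p = 0.617). Has1 was between 1.004 and 3.96 normalized counts, and Has3 was at or under 3 reads.

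Of 6 hyaluronidase genes, 4 were tested and 0 passed. Hyal2, whose product is anchored at the cell surface, was at 148, 183 and 99.1 normalized counts in control and at 198, 158 and 105 in STZ, with replicate 3 lowest in both groups. Hyal1, the lysosomal hyaluronidase, was at 30.8, 22.9 and 13.4 in control and at 47.4, 40.6 and 27.1 in STZ, and Hyal3 was at 170.2, 223 and 126 in control and at 126, 129 and 92.4 in STZ. The log2 fold changes of these neighbours on chromosome 8 were 0.10, 0.79 and -0.55, with adjusted p of 0.939, 0.331 and 0.327 in limma. The groups overlapped in Hyal1, where control replicate 1 was above STZ replicate 3, and in Hyal3, where control replicate 3 was below STZ replicate 2. Hyal4 varied 11.7-fold across the libraries, from 2.29 to 26.7 normalized counts, with both extremes in control libraries.

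Genes that work with the members were taken from 5 lists. Of 8 tested genes of the linker region and chondroitin chain, 16 of sulfate and sugar nucleotide supply, 10 of glycosaminoglycan degradation and 8 of hyaluronan receptors and binding proteins, 0 passed in each list. Their lowest adjusted p in limma were 0.119, 0.256, 0.169 and 0.333, and their median log2 fold changes were 0.06, 0.18, -0.29 and 0.05. Cd44, the main hyaluronan receptor, was at 132 ± 29.4 normalized counts in control and 155 ± 9.62 in STZ (SD, n = 3 each). Ugdh, which makes the UDP-glucuronic acid used by all these chains, was higher in every STZ library, as were 10.1% of all features. Its log2 fold change was 0.50, with an adjusted p of 0.256 in limma.

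The fifth list, other proteoglycan cores and small leucine-rich proteins, had 3 of 13 tested genes called, beside 2.1% of all features tested. Of the 3 called, 1 was higher and 2 were lower, beside 1.17% and 0.927% of all features. The median log2 fold change of the list was -0.05. Prelp, a collagen-binding small leucine-rich protein, was at 6172, 8498 and 5288 normalized counts in control and at 2754, 3543 and 2448 in STZ. Every STZ library was below every control library, as in 10.3% of all features. The log2 fold change of Prelp was -1.18 with a standard error of 0.24 (limma, adjusted p = 0.0346). Ogn, the gene of osteoglycin, a related protein, was at 178, 195 and 211 in control and at 97.5, 59.3 and 117 in STZ, with a log2 fold change of -1.13 (limma, adjusted p = 0.0479, and 0.0518 in edgeR). Cspg4, the gene of the transmembrane chondroitin sulfate proteoglycan NG2, known from pericytes, was at 9.23, 6.10 and 11.1 in control and at 54.8, 29.7 and 35.1 in STZ. The level was 4.52-fold higher in STZ by the ratio of means, with a log2 fold change of 2.04 (limma, adjusted p = 0.0196). This fold rests on low control counts of Cspg4. Control replicate 2 was under its olfactory receptor background of 6.33, and control replicate 3 was close to its own, 10.02. With single libraries left out, the adjusted p ranged from 0.0193 to 0.173 for Prelp, from 0.0459 to 0.180 for Ogn and from 0.0151 to 0.0890 for Cspg4, and stayed under 0.05 in 1, 1 and 2 of the 6 cases. Aspn, the gene of asporin, which is named after its values were seen, was at 107, 45.0 and 111 in control and at 209, 252 and 152 in STZ, with an adjusted p of 0.0830 in limma and 0.0101 in DESeq2.

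**Figure D5:**
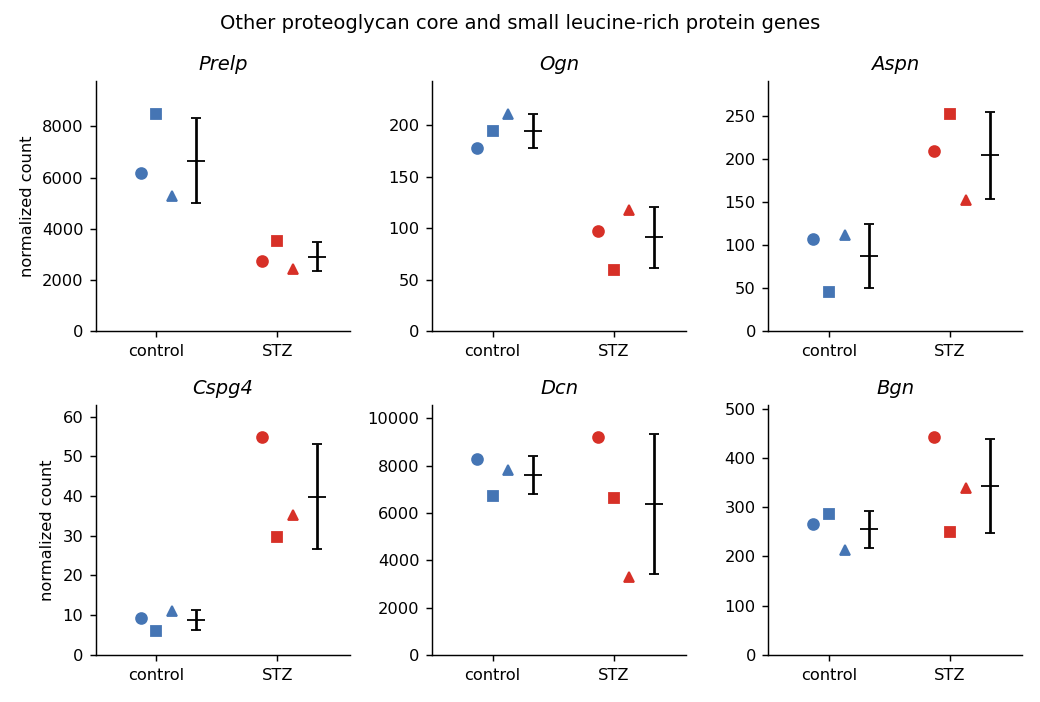
Normalized counts per library of 4 related genes, Prelp, Ogn, Aspn and Cspg4, beside the members Dcn and Bgn (circle, square and triangle for replicates 1, 2 and 3, with group mean and SD). Prelp and Ogn are lower in every STZ library, beside 10.3% of all features, and Aspn and Cspg4 higher, beside 10.1%. Dcn and Bgn overlap.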

How the data were processed

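RNA of the IM tip of 3 control and 3 STZ rats was sequenced by the authors on a HiSeq2000 after PCR-based cDNA synthesis. Per the submitters' processing notes, STAR 2.3.1t, rn4 and DESeq 1.16.0 were used. The deposited signal of each feature is a read count that the authors divided by 1 size factor per library. The program that counted the reads and its use of strand are not given in the sources used here, so overlapping and antisense genes may share reads. In every library 100.0% of the values were whole multiples of 1 step (tolerance 0.01 reads), which gave back the reads. They were not the main input, since the deposited values are not counts.

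limma 3.58.1 (R 4.3.3, intensity trend) was fitted to log2(normalized count + 1) of the 13486 features whose mean reached 5, with Benjamini-Hochberg adjustment over all of them and a threshold of 0.05. Fold changes on this scale understate those of low genes. edgeR 4.0.16 (quasi-likelihood, TMM) and DESeq2 1.42.0 on the recovered reads, pseudocounts of 0.5 and 5, minimum means of 1 and 20, scaling to equal library totals, quantile normalization, no filter, limma without trend or with robust moderation, a replicate block and each library left out were alternatives. Leaving out replicate 3 of both groups was added after seeing the data, since it had the highest background. The methods were tested on simulated data.

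The members and lists were chosen with earlier results of these data known. Values per library are given for members called by limma, edgeR, DESeq2 or the block, for tested members whose groups did not overlap and for the 12 members with the highest mean count. Hyal1, Hyal3, Has2, Sulf1, Chst2, Cd44, Ugdh and Aspn were named after their values were seen. The labels give each library as a separate sample, and p-values measure the spread between these samples. The cDNA was amplified by PCR without molecular identifiers, so Poisson intervals and the floor of 3 reads cover counting error only. Summaries and plots used Python 3.11.15, pandas 2.3.3, numpy 2.4.6, scipy 1.17.1 and matplotlib 3.10.9.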

Additional observations from a re-analysis of the deposited data

How the results depend on the processing

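Vcan and Sdc1 kept their direction under all 20 alternatives, and their adjusted p stayed under 0.05 in 16 and 12 of them. The number of members called, 2, became 0 without the low-count filter (adjusted p 0.220 for Vcan and 0.215 for Sdc1) and 0 in limma without the trend (0.152 and 0.165), 1 (Vcan) without replicate 3 of both groups, and 0 to 2 with single libraries left out. The calls over all features, 283, became 98 without the filter, 31 without the trend, 522 with quantile normalization, 599 in DESeq2 and 88 to 352 with single libraries left out. They fell by over 1.5 times without control replicate 1 or 2 or any STZ replicate. Of the 283, 158 were higher and 125 lower, and lower calls outnumbered higher ones without the filter (43 and 55), with equal library totals (188 and 201) and without STZ replicate 1 (64 and 77). The median log2 fold change of the members was between -0.024 and 0.15, negative only without STZ replicate 1. No scaling moved the median of all genes by more than 0.03.

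Of 449 pairs of a member and a setting other than a left-out library, 433 kept direction and side of the threshold and 12 changed sign. The log2 fold change of Chst9 became -0.017 with equal totals and -0.0058 in DESeq2, that of Ext2 -0.021 and -0.0062, and that of Ext1 -0.020 and -0.029, with -0.029 under quantile normalization and -0.019 in edgeR. That of Hyal4 became -0.019 with a pseudocount of 5, -0.26 in edgeR, -0.29 in DESeq2 and -0.044 in edgeR with the block. Without replicate 3 of both groups, Dcn was at 0.063, Chst9 at -0.13, Ext2 at -0.0063, Chst15 at 0.47 and Extl3 at -0.082. With single libraries left out the ranges were -0.70 to 0.041 for Dcn, -0.025 to 0.29 for Sdc4, -0.094 to 0.15 for Sdc2, -0.22 to 0.20 for Chst9, -0.077 to 0.14 for Ext2, -0.19 to 0.39 for Srgn, -0.14 to 0.35 for Hyal2, -0.12 to 0.26 for Ext1, -0.70 to 0.064 for Chpf, -0.36 to 0.20 for Chst15, -0.035 to 0.88 for Chst12 and -0.63 to 0.91 for Hyal4. The cause was not tested.

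The replicate block gave 561 calls in limma and 544 in edgeR over all 13486 features, with 2 members called in each. The labels link same-numbered libraries by the number alone. Deviations of same-numbered libraries correlated at 0.39, -0.06 and 0.32 over 9315 features, beside -0.47 to 0.22 for other pairs across the groups. Of 6 libraries, 4 were closest to their own number. The olfactory receptor background also went with the number. In control and STZ it was 2.05 and 1.86 in replicate 1, 6.33 and 5.93 in replicate 2, and 10.02 and 9.03 in replicate 3. What ties same-numbered libraries together was not tested. At 3 rats per group, most members' intervals do not exclude a change of 0.5 on the log2 scale, and members near 3 reads per library could not be compared.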
